A study of Homo sapiens with 2 samples.

Results

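The cells described here were OTX2 GSC otic epithelial cells of human inner ear organoids. They carried RNA of OC90, the gene of the otoconial matrix protein otoconin-90, and of at least 1 of OTX2, GSC, CASC17 and ATP13A5. They were chosen from the summed unique molecular identifiers (UMIs, 1 per captured RNA molecule) of single cells. A cell was an OC90 otic cell if it had at least 5 OC90 UMIs, fewer than 5 of COL1A2 (mesenchyme), fewer than 3 of CDH19 (glia) and fewer than 3 of the cycle genes MKI67, TOP2A and UBE2C together. It was an OTX2 GSC cell if OTX2, GSC, CASC17 and ATP13A5 together gave at least 3 UMIs (the OTX2 sum below) and more than each of 3 other sums. Those sums defined 3 other kinds of otic cell in the same way: CALB1 cells (CALB1, WIF1, HMX2 and MYBPC1), GPC5 cells (GPC5 and IRX3) and NPY cells (NPY, CITED1, ATP6V0D2 and CA2). The rule chose 1071 of 31818 kept cells, out of 8274 OC90 otic cells. Of these, 969 came from the GelNB-CH library and 102 from the Matrigel library.

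Both libraries came from WA25, a human embryonic stem cell line carrying the nuclear tdTomato reporter SOX2-ntdTomato, and held reporter-positive cells sorted from organoids at day 40 after Accutase for 90 min. Aggregates of both groups had FGF-2, SB-431542, BMP-4 and growth factor-reduced Matrigel at first, then FGF-2 with the BMP inhibitor LDN193189, then the WNT pathway activator CHIR99021 as well. The GelNB-CH group was embedded on day 11 in the hydrogel GelNB-CH with 0.1 wt% PEG4SH, given oDex at 0.02% on day 15 and kept in 3 µM CHIR99021 until day 18. The growth text attached to the Matrigel group is the same text and describes no embedding in Matrigel, so the 2 groups are told apart here by their labels alone. The maturation medium in that text had its B27 supplement without vitamin A. Each group was 1 library of an unstated number of pooled organoids. No value has a replicate, no test was possible, and every interval below is an exact 95% interval for counting error only.

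Of 21743 barcodes in the GelNB-CH library (247006223 UMIs in all), 21319 cells were kept, with a median depth of 9265 UMIs. Of 10912 barcodes in the Matrigel library (178672097 UMIs), 10499 were kept, with a median of 14403. The libraries shared 78 barcodes, 1 of them on an OTX2 GSC cell of the GelNB-CH library and none on one of the Matrigel library. The OTX2 GSC cells carried 13373709 UMIs in GelNB-CH and 1856812 in Matrigel, so that 1 UMI was worth 0.0748 and 0.539 CPM (counts per 1000000 UMIs of the group). Matrigel values of these cells therefore rest on few molecules.

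The otic epithelium forms from a placode and is patterned into sensory patches, which give hair cells and supporting cells, and non-sensory epithelium, which lines the canals, the endolymphatic duct and sac and the roof of the cochlear duct. OTX2 is a homeodomain transcription factor best known from forebrain, midbrain and retina, and in the mouse inner ear it is known from ventral non-sensory epithelium of the cochlear duct. GSC is a related homeodomain factor that also represses transcription in the organizer of the gastrula. Retinoic acid is a patterning signal of the otocyst, made from retinal by ALDH1A enzymes and broken down by CYP26 enzymes, and CYP26A1 is itself a known target of the retinoic acid receptor.

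CYP26A1 ranked first among the genes ranked against the other otic cells, which leave out the genes of the rule. The ranking took genes whose larger level was at least 20 CPM in each library, by the smaller of their library ratios. CYP26C1, with larger ratios given below, fell short of that level in Matrigel. The promoter of CYP26A1 is shown beside those of 3 of the 4 genes of the rule. The window of the fourth, CASC17, does not hold the letters searched and is not shown. The stretches come from RefSeq (GRCh38.p14), each read on the gene's own strand. Capitals mark AGTTCA, the hexamer of which the retinoic acid response element has a pair, or its reverse complement, as found by a search of both strands.
CYP26A1: taaagaTGAACTttgggTGAACTaattgt
OTX2: tacaattAGTTCAcatgctccggcc
GSC: acccgcgggttgAGTTCAgcgaacgctgcg
ATP13A5: gtgacgattccaAGTTCAcagaagcccaag
The CYP26A1 stretch (chr10:93073797-93073825, plus strand) holds the whole element on the reverse strand, a direct repeat of AGTTCA spaced by 5 bases of any kind, at 74 to 90 bases before the start site. The whole element in these exact letters occurred in 4 of 35116 RefSeq promoter windows of the same length (0.0114%). No other spelling of it was searched. PHF8, another gene with such a window, had ratios to the other otic cells of 1.19 in GelNB-CH and 0.892 in Matrigel. The single hexamer AGTTCA, which overlaps the whole element wherever that occurs, was found in 3669 windows (10.4%), which belong to 12.6% of the genes with a window. The OTX2 stretch (chr14:56810705-56810729, minus strand) has it 238 to 243 bases before the start, the GSC stretch (chr14:94770197-94770226, minus strand) at 96 to 101 and the ATP13A5 stretch (chr3:193378784-193378813, minus strand) at 43 to 48. All but the OTX2 stretch overlap an exon annotated in GENCODE v29. Of the 15 genes named below as higher in the OTX2 GSC cells, 12 had a window, and CYP26A1, ANOS1 and LINC01482 held the hexamer. Of the 12 named as lower, 7 had a window, and CYTOR held it. TAATCC, the site preferred by OTX2 and GSC proteins, was in 6.36% of windows and in none of these genes or the rule genes. TAATTA, a homeodomain site, was in 4.84% of windows and in those of OTX2-AS1, PLD5, IQCJ-SCHIP1 and MSX2. These motifs were chosen after the values were seen, and a match describes letters only.

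The rule cuts a range out of a per-cell sum and does not define a separate type. In GelNB-CH, 371 of the cells (38.3%) had an OTX2 sum of 3 or 4, just inside the threshold, and 569 other otic cells had a sum of 2, just outside. In Matrigel, 52 cells (51.0%) had a sum of 3 or 4, and 133 otic cells had a sum of 2. A further 495 GelNB-CH and 125 Matrigel otic cells reached 3 but did not exceed another kind's sum. The median OTX2 sum was 5.00 in GelNB-CH and 4.00 in Matrigel, with highest sums of 64 and 33. The CALB1, GPC5 and NPY sums had medians of 0, 1.00 and 0 in the OTX2 GSC cells of GelNB-CH and of 0 in all 3 cases in Matrigel. At least 1 UMI of the GPC5 sum was found in 60.1% and 49.0% of the OTX2 GSC cells.

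The genes of the rule are given as a description of what it selected. All 4 lie on minus strands in GENCODE v29 (GRCh38): OTX2 at chr14:56799905-56810479, GSC at chr14:94768216-94770230, ATP13A5, which encodes a P5-type ATPase, at chr3:193274790-193378843, and CASC17, a long intergenic noncoding RNA, at chr17:71097775-71202177. OTX2 was measured at 113 CPM in the OTX2 GSC cells and 22.6 in the other otic cells of GelNB-CH, and at 147 and 14.4 in Matrigel. GSC reached 50.8 and 9.87 CPM in GelNB-CH, and 38.2 and 3.41 in Matrigel. CASC17 reached 280 and 29.5 CPM in GelNB-CH, and 148 and 10.3 in Matrigel. Outside the selected cells, the CALB1 cells held OTX2 at 31.3 and 32.9 CPM, the GPC5 cells at 18 and 7.30 and the NPY cells at 13 and 8.91. ATP13A5 reached 102 and 11.7 CPM in GelNB-CH, and 14.5 and 1.26 in Matrigel. OC90, which all otic cells shared by the gate, was at 4226 and 4379 CPM in GelNB-CH and at 3835 and 3554 in Matrigel.

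**Figure D1:**
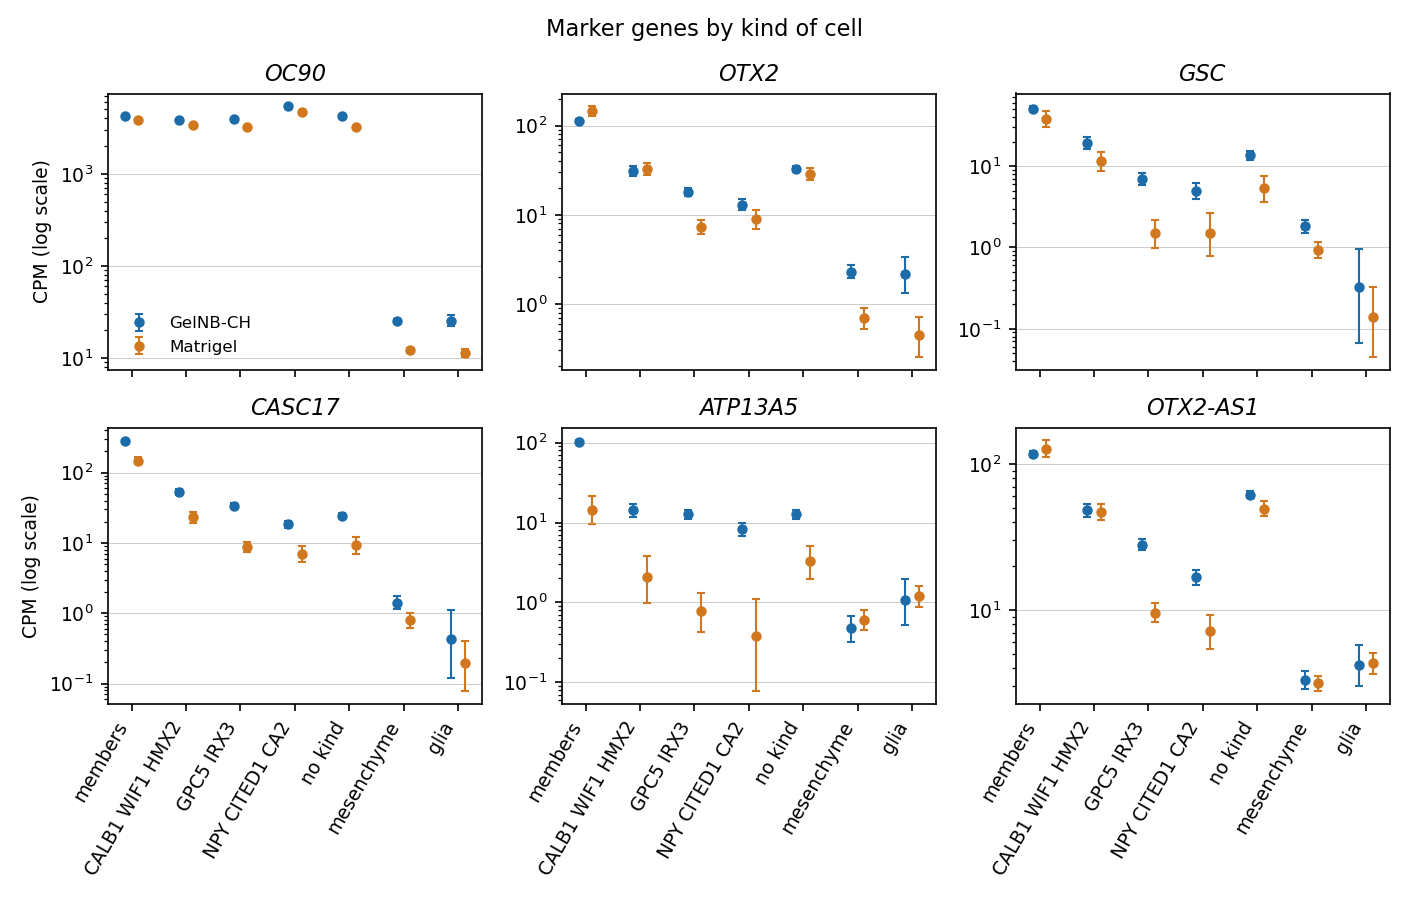
CPM (log axis) of OC90, the 4 genes of the rule and OTX2-AS1 in the OTX2 GSC cells (members), the 3 other kinds of otic cell, otic cells of no kind, mesenchyme and glia; points are library values and bars exact 95% counting intervals. OTX2-AS1, which the rule did not use, is also highest in the members of both libraries among the groups plotted, at 118 and 128 CPM.

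Within the OTX2 GSC cells the 4 genes were rarely seen all together. OTX2 had a UMI in 70.7% of the cells in GelNB-CH and 81.4% in Matrigel, GSC in 45.1% and 37.3%, CASC17 in 70.0% and 36.3%, and ATP13A5 in 54.5% and 14.7%. In the other otic cells, which the rule left out, OTX2 had a UMI in 19.3% and 15.3% and GSC in 9.81% and 5.40%. CASC17 had one there in 16.1% and 9.26%, and ATP13A5 in 9.34% and 1.70%. In mesenchymal cells (at least 5 COL1A2 and fewer than 5 OC90 UMIs) OTX2 had a UMI in 1.73% and 0.820%. Their median depth was 9110 and 14574 UMIs against 12151 and 15450 in the OTX2 GSC cells. The corresponding shares of mesenchymal cells were 1.80% and 1.46% for GSC, 1.22% and 0.920% for CASC17, and 0.343% and 0.860% for ATP13A5. In GelNB-CH 158 cells (16.3%) showed only 1 of the 4 genes, 379 showed 2, 316 showed 3 and 116 (12%) showed all 4. In Matrigel 44 cells (43.1%) showed 1 gene, 46 showed 2, 11 showed 3 and 1 showed all 4. OTX2 and GSC were seen in the same cell in 32.0% and 31.4%, and at least 1 of the pair in 83.8% and 87.3%. The remaining cells were selected mostly by CASC17: 14.7% and 12.7% had CASC17 and neither transcription factor.

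The weight of the 4 genes in the rule differed between the libraries. CASC17 gave 51.3% of the summed UMIs of the 4 genes in GelNB-CH and 42.6% in Matrigel, OTX2 20.7% and 42.3%, ATP13A5 18.7% and 4.18%, and GSC 9.32% and 11%. CASC17 alone reached 3 UMIs in 47.5% of the GelNB-CH cells and OTX2 alone in 23.9%. In Matrigel the order was turned, with 26.5% for CASC17 and 52.9% for OTX2.

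OTX2 GSC cells made up 15.6% (14.7 to 16.5) of the 6228 OC90 otic cells of GelNB-CH and 4.99% (4.08 to 6.02) of the 2046 of Matrigel. Over all kept cells they were 4.55% (4.27 to 4.83) and 0.972% (0.793 to 1.18). With every cell thinned to 5000 UMIs and the gates applied again, they were 8.19% (7.53 to 8.89) and 1.51% (1.03 to 2.13) of the otic cells, with 1974 and 422 shallower kept cells left out. The GelNB-CH share was thus above the Matrigel share at matched depth too. GPC5 cells went the other way, with 23.2% (22.2 to 24.3) of the GelNB-CH otic cells and 41.6% (39.5 to 43.8) of the Matrigel ones. CALB1 cells took 11.2% (10.4 to 12) and 14.3% (12.8 to 15.9) of them, and NPY cells 18.2% and 17.3%. The shares rest on the genes that the rule reads, and ATP13A5 and CASC17 were also higher in the remaining otic cells of GelNB-CH than of Matrigel, 9.31-fold and 2.86-fold. They describe 1 sort per group, and a difference between the groups cannot be told apart from a difference between 2 sorted preparations.

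**Figure D2:**
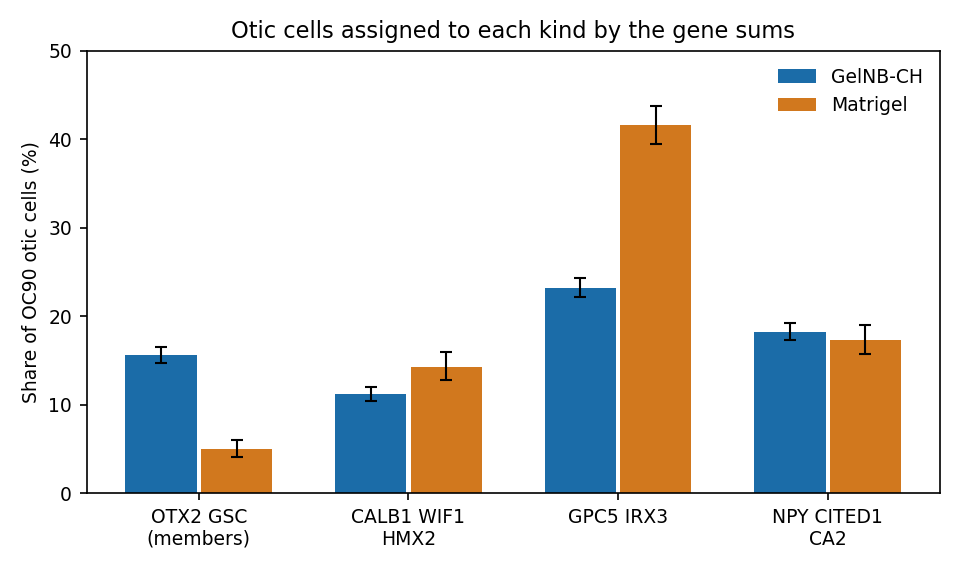
Share of OC90 otic cells (percent) assigned to each kind in GelNB-CH and Matrigel; error bars are exact 95% binomial intervals for counting error. OTX2 GSC cells were 15.6% of otic cells in GelNB-CH and 4.99% in Matrigel, and GPC5 cells 23.2% and 41.6%.

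The otic label was checked against marker lists. In GelNB-CH the 17 otic epithelium markers other than OC90 summed to 2577 CPM in the OTX2 GSC cells and 2460 in other otic cells. They summed to 812 in mesenchyme and 586 in glia (at least 3 CDH19 and fewer than 5 OC90 UMIs). In Matrigel the sums were 2621, 2551, 736 and 506. PAX2, a transcription factor of the otic placode, was at 347 CPM in the OTX2 GSC cells of GelNB-CH and at 310 in those of Matrigel. OTX2 also marks choroid plexus, retina and anterior brain, so their markers were read as well. The choroid plexus genes KL and HTR2C were at 0 in both libraries, and the 13 choroid plexus genes other than OTX2 summed to 515 CPM against 567 in the other otic cells of GelNB-CH and to 472 against 572 in Matrigel. RAX and SIX6 of the retina were at 0 in both, while the whole retina list summed to 133 against 86.9 CPM and to 124 against 72.1. Within it, SIX3, a homeodomain factor of eye and forebrain, was 2.19-fold (20.0 and 9.10 CPM) and 4.42-fold (16.2 and 3.66 CPM) higher than in the other otic cells. The 12 genes of anterior neuroectoderm and midbrain summed to 102 against 62.7 CPM in GelNB-CH and to 115 against 72.3 in Matrigel, and only 3 of them reached 5 CPM in either library. FEZF2 was at 0 in both libraries, and LHX5, EN1, EN2, WNT1 and FEZF1 were at 0 in Matrigel. EMX2, also of that list and with levels given below, was higher than in the other otic cells of both libraries. The hair cell factors ATOH1 and POU4F3 were at 0 in both libraries, while the whole hair cell list summed to 449 against 358 CPM and to 407 against 337, with 4 of its 16 genes at 5 CPM or more. FOXI1, ATP6V1B1 and SLC4A1 of the ion-transporting cells of the endolymphatic sac were also at 0 in both. The 10 genes of that list outside the rule summed to 64.0 against 40.4 CPM and to 63.5 against 40.1. Of the 3 of them at 5 CPM or more, SLC26A4, with levels given below, was at least 2-fold higher in both libraries.

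Markers of the other sorted cells were also read. The mesenchyme list summed to 104 CPM in the OTX2 GSC cells of GelNB-CH, 141 in the other otic cells and 3722 in mesenchyme, and to 52.2, 73.9 and 3231 in Matrigel. The glia list summed to 300, 382 and, in glia, 2898 CPM in GelNB-CH and to 278, 367 and 4580 in Matrigel. The neuron list summed to 483 against 366 CPM in GelNB-CH and to 381 against 309 in Matrigel, with 473 and 444 in the CALB1 cells. The cartilage list summed to 3673 CPM in the OTX2 GSC cells, 3451 in the other otic cells and 4858 in mesenchyme of GelNB-CH, and to 2424, 2480 and 3814 in Matrigel. Scrublet called 109 of the GelNB-CH cells (11.2%) and 3 of the Matrigel cells (2.94%) doublets, against 10.8% and 3.19% of the other otic cells, and the calls were kept. SOX2, the gene whose reporter was sorted, was at 6.95 CPM in the OTX2 GSC cells and 13.7 in the other otic cells of GelNB-CH, and at 22.6 and 19.5 in Matrigel.

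Against the other otic cells, few genes were set apart by 2-fold or more in both libraries. The comparison covers genes whose larger level was at least 10 CPM, and because the rule chose the cells from the same counts, its values are a description with no test. In GelNB-CH 103 of 10218 genes (1.01%) were at least 2-fold higher in the OTX2 GSC cells and 117 (1.15%) at least 2-fold lower. In Matrigel 242 of 10587 genes (2.29%) were higher and 256 (2.42%) lower. Both libraries shared 62 higher genes (0.621% of 9989), which were 60.2% of the GelNB-CH list and 25.6% of the Matrigel list, and 71 lower genes (0.711%). With scaling factors by the TMM method these became 53 and 90, so that the higher share moved from 46.6% to 37.1%. Of the 62 higher genes 48 also passed once the cell holding most of a gene's UMIs was left out, and so did all 71 lower genes. With called doublets removed, 61 and 67 of them passed. Of the 59 higher genes with an annotated span 19 (32.2%) reached over 300 kb or more, against 6.77% of all genes compared, with a median span of 194 kb against 43.3 kb. The part of gene span in these values was not tested.

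CYP26A1, the retinoic acid hydroxylase, ranked first by the smaller library ratio among ranked genes whose larger level was at least 20 CPM in each library. It stood at 48.9 CPM in the OTX2 GSC cells and 10.0 in the other otic cells of GelNB-CH, 4.87-fold higher (4.36 to 5.45), and at 35.5 and 5.19 CPM in Matrigel, 6.85-fold higher (5.10 to 9.11). It had a UMI in 25.6% and 23.5% of the OTX2 GSC cells and in 5.51% and 4.63% of the other otic cells. OTX2-AS1, transcribed away from OTX2 on the opposite strand from a start 2704 bases off (chr14:56813183-57152177), was 3.15-fold higher in GelNB-CH (118 and 37.5 CPM) and 6.33-fold higher in Matrigel (128 and 20.3 CPM). The annotated spans of the pair do not overlap. LINC01482, a noncoding gene 2333893 bases from CASC17 on the same chromosome, was 3.03-fold (30.1 and 9.92 CPM) and 3.55-fold (27.5 and 7.73 CPM) higher.

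Several of the other named genes encode secreted or surface proteins. ANOS1, which encodes the matrix protein anosmin-1, was 3.75-fold higher (3.49 to 4.03) in GelNB-CH, at 102 and 27.2 CPM, and 3.68-fold higher (2.74 to 4.85) in Matrigel, at 32.3 and 8.79 CPM. SMOC2, a matricellular calcium-binding protein, was at 140 and 47.7 CPM in GelNB-CH and at 83.5 and 19.2 in Matrigel. Its level in mesenchyme was 136 and 98.2 CPM. NELL2, a secreted ligand of the axon guidance receptor ROBO3, was found in 92.9% and 88.2% of the OTX2 GSC cells and in 58.7% and 52.2% of the other otic cells, at 420 against 166 CPM and 354 against 98.8 CPM. FREM2, of the extracellular Fraser complex, stood at 51.8 against 20.3 CPM and at 51.2 against 11, and the cadherin gene CDH7 at 33.0 against 12.5 and 26.9 against 7.43. The CALB1 cells came close for CDH7, at 27.8 and 18.3 CPM, and for ANOS1 in Matrigel, at 29.1, with 41.0 in GelNB-CH. They were further off for SMOC2 (48.1 and 23.7 CPM), NELL2 (204 and 206) and FREM2 (26.2 and 19.8).

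Of the named genes that encode ion channel subunits, receptors or RNA-binding proteins, KCNIP4 and DPP10, both auxiliary subunits of voltage-gated Kv4 potassium channels, were 3.06-fold (715 and 234 CPM) and 3.00-fold (811 and 270 CPM) higher in GelNB-CH, and 3.84-fold (542 and 141 CPM) and 2.50-fold (249 and 99.7 CPM) higher in Matrigel. KCNB2, a voltage-gated potassium channel, was at 181 against 72.4 CPM and 156 against 46.0. GRIA4, an AMPA receptor subunit, was at 81.0 against 32.3 CPM and 39.9 against 12.2. The splicing factor RBFOX1 was at 235 against 75.1 CPM and 206 against 74.4. The CALB1 cells came close for some of these: they held KCNIP4 at 362 and 427 CPM, RBFOX1 at 145 and 160, and KCNB2 at 151 and 134. The other named higher genes were PLD5, at 50.7 against 18.2 CPM and 29.1 against 7.67, and SLC26A7, an anion transporter. SLC26A7 stood at 30.1 against 9.47 CPM in GelNB-CH and at 25.9 against 2.43 in Matrigel, where 64.6% of its UMIs lay in 1 cell. Without that cell its Matrigel ratio was 3.81 in place of 10.6.

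**Figure D3:**
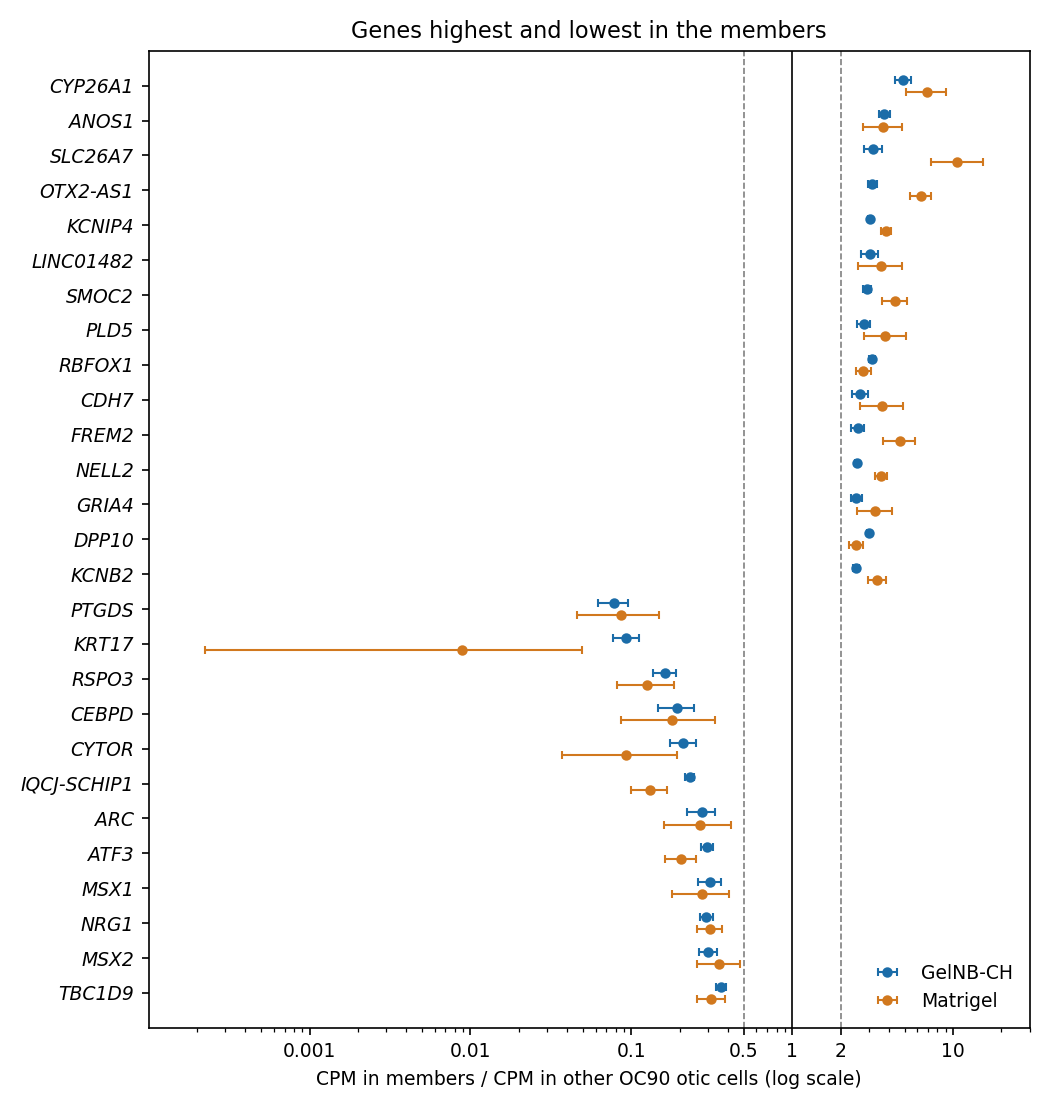
Ratio of CPM in the OTX2 GSC cells (members) to CPM in the other OC90 otic cells (log axis) for the 15 genes named as highest and the 12 named as lowest; points are library values, bars exact 95% counting intervals, dashed lines 0.5 and 2. CYP26A1 is at 4.87 in GelNB-CH and 6.85 in Matrigel, and PTGDS at the other end is 12.8-fold and 11.5-fold lower in the members; the wide KRT17 interval in Matrigel rests on 1 UMI.

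The genes lower in the OTX2 GSC cells were led by PTGDS, the prostaglandin D2 synthase, at 6.65 against 85.4 CPM in GelNB-CH (12.8-fold lower) and at 7.0 against 80.8 in Matrigel (11.5-fold lower). KRT17, a keratin of basal and stressed epithelia, stood at 8.97 against 96.3 CPM in GelNB-CH. In Matrigel a single KRT17 UMI was found, 0.539 against 60.6 CPM, a ratio of 0.00888 (0.000225 to 0.0496). RSPO3, a secreted WNT potentiator, was at 10.6 against 65.6 CPM and at 13.5 against 107. The homeobox genes MSX1 and MSX2, known from dorsal otic epithelium and as BMP targets, were at 11.7 against 37.9 and 17.6 against 58.7 CPM in GelNB-CH, and at 14 against 50.5 and 23.2 against 65.5 in Matrigel. The stress-responsive genes CEBPD, ARC and ATF3 were 5.22-, 3.66- and 3.40-fold lower in GelNB-CH and 5.57-, 3.76- and 4.88-fold lower in Matrigel. CYTOR, IQCJ-SCHIP1 and TBC1D9 were 4.76-, 4.34- and 2.76-fold lower in GelNB-CH and 10.8-, 7.67- and 3.17-fold lower in Matrigel. NRG1, a ligand of ERBB receptors, was at 33.9 against 116 CPM and at 69.5 against 224, with 79.8% of its Matrigel UMIs in the OTX2 GSC cells lying in 1 cell. Without that cell the Matrigel ratio was 0.0636.

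Much of this lower set separates the OTX2 GSC cells from the NPY cells rather than from every otic kind. PTGDS was at 247 and 290 CPM in the NPY cells but at 17.4 and 10.2 in the CALB1 cells. KRT17 was at 310 and 244 CPM in the NPY cells and at 7.18 and 3.75 in the CALB1 cells, and ATF3 at 429 and 734 against 36.3 and 27.9. MSX1 stood at 63.0 and 77.8 CPM in the NPY cells and MSX2 at 92.2 and 123, against 16.6 and 25 and against 23.7 and 24.6 in the CALB1 cells. RSPO3 was high in both NPY cells (109 and 134 CPM) and GPC5 cells (90.5 and 144), and at 10.8 and 15 in the CALB1 cells.

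The retinoic acid genes are given by role. Of the clearing enzymes, CYP26C1 (chr10:93060808-93069536), whose annotated span ends 3939 bases from that of CYP26A1 (chr10:93073475-93077890), was 6.10-fold higher (5.07 to 7.34) than in the other otic cells of GelNB-CH, at 20.3 and 3.33 CPM. In Matrigel it was 6.95-fold higher (4.22 to 11.1), at 13.5 and 1.94 CPM, from 25 UMIs in 13 cells. The third clearing enzyme, CYP26B1, was low in all of these cells, at 3.74 against 5.10 CPM and 2.15 against 7.13. The synthesis enzyme ALDH1A1 stood at 68.4 against 181 CPM in GelNB-CH, a ratio of 0.377 (0.352 to 0.403), and at 45.8 against 210 in Matrigel, a ratio of 0.218 (0.174 to 0.270). ALDH1A3 stood at 68.9 against 137 CPM, a ratio of 0.505, and at 86.7 against 283, a ratio of 0.306. RDH10, which makes retinal from retinol, was at 79.7 against 120 CPM and 84.0 against 118. ALDH1A2, the third synthesis gene, was at 2.02 against 2.39 CPM and 6.46 against 3.14. The adjacent clearing genes CYP26A1 and CYP26C1 were thus higher, and ALDH1A1 and ALDH1A3 lower, than in the other otic cells of both libraries, which CYP26B1 and ALDH1A2 did not share.

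The receptor genes of retinoic acid differed from each other. RARB was 1.38-fold and 1.42-fold higher (61.6 against 44.7 CPM and 57.1 against 40.2). RARG, another receptor, was at 10.1 against 14.2 CPM and 3.23 against 13.0. List medians here and below are over the list's genes at 5 CPM or more in the higher group. For the retinoic acid and hedgehog list (19 and 21 such genes of 21) the median log2 ratio was -0.08 in GelNB-CH and 0.16 in Matrigel, against 0.03 and 0.01 over all genes. At least 2-fold higher were 2 and 3 of its genes (1.01% and 2.29% of all genes), and at least 2-fold lower 1 and 3 (1.15% and 2.42%). The order across kinds was not the same for clearing and synthesis. CYP26A1 stood at 21.7 and 13.1 CPM in otic cells of no kind, 16.2 and 13.9 in CALB1 cells, 4.49 and 2.38 in GPC5 cells and 1.07 and 0.502 in NPY cells. ALDH1A1 was lower still in the CALB1 cells, at 46.5 CPM in GelNB-CH and 36.4 in Matrigel, and its high levels lay in the GPC5 cells (270 and 258 CPM).

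**Figure D4:**
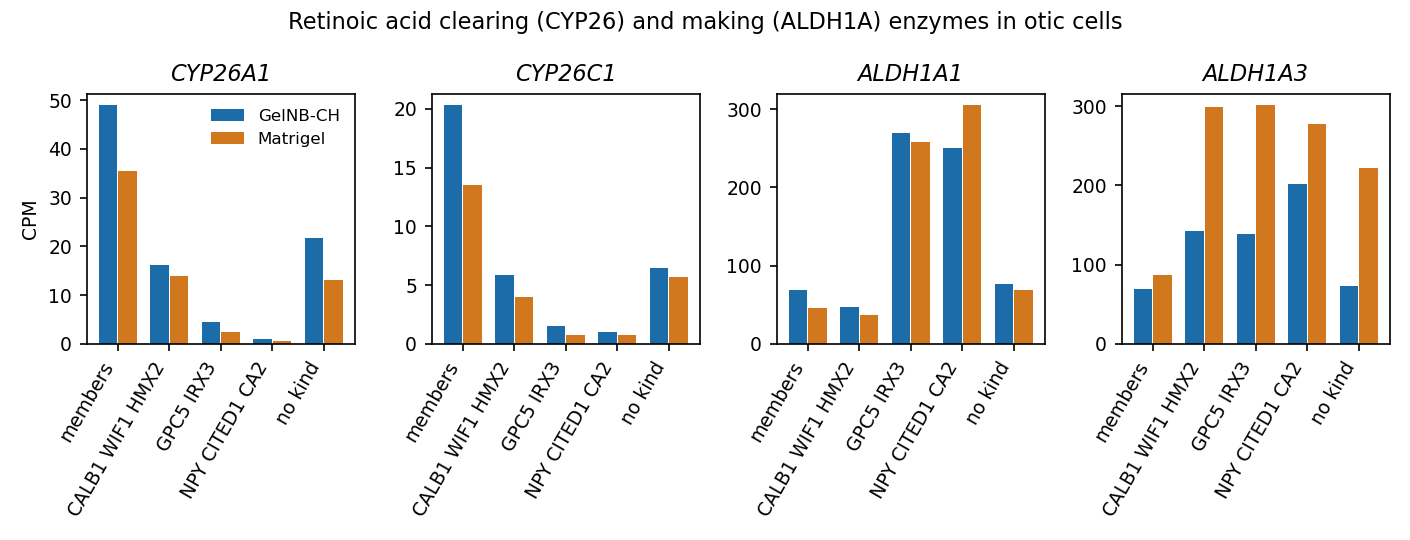
CPM of 2 retinoic acid clearing genes (CYP26A1, CYP26C1) and 2 synthesis genes (ALDH1A1, ALDH1A3) in the OTX2 GSC cells (members), 3 other kinds of otic cell and otic cells of no kind, by library; bars are library values with no replicate, and each panel has its own axis. CYP26A1 and CYP26C1 peak in the members, at 48.9 and 20.3 CPM in GelNB-CH, while ALDH1A1 is high in GPC5 and NPY cells.

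Among transcription factors that pattern the otocyst, OTX1, the paralogue of OTX2, was 2.49-fold higher (2.20 to 2.82) in the OTX2 GSC cells of GelNB-CH, at 30.2 against 12.1 CPM, and 2.80-fold higher (1.76 to 4.27) in Matrigel, at 13.5 against 4.81. The CALB1 cells shared it, at 21.5 CPM in GelNB-CH and 16.9 in Matrigel. NR2F1, a nuclear receptor of the cochlear duct, was at 323 against 201 CPM and 432 against 143. EMX2, a homeodomain factor of sensory maculae, was at 67.0 against 33.0 CPM and 57.1 against 42.6. EYA1, a transcriptional cofactor of the otic placode, was at 453 against 286 CPM and 466 against 251. TBX1, a factor of ventral and lateral otic epithelium, was close between the groups, at 157 against 133 and 165 against 141. For the cochlear roof and ventral list without OTX2 and GSC (11 and 12 of 14 genes) the median log2 ratio was 0.03 in GelNB-CH and 0.57 in Matrigel, the latter 0.19 when each gene's top cell was left out. The dorsal and vestibular list had medians of -0.16 and 0.13, and the Matrigel median was -0.45 without the top cells. No direction is therefore given for either list.

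The prosensory list (15 and 17 of 20 genes) had medians of -0.39 and -0.03, with the tetraspanin gene CD9 at 45.8 against 102 CPM in GelNB-CH and 45.2 against 81.8 in Matrigel. IRX5, a homeodomain gene of the dorsal list, was at 30.1 against 40.3 CPM in GelNB-CH and 9.16 against 59.2 in Matrigel. PAX8, an early placode factor, was at 4.34 against 8.41 CPM and 2.15 against 9.86.

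Of the 29 WNT pathway genes listed, 11 of the 19 at 5 CPM or more had a lower level in the OTX2 GSC cells of GelNB-CH and 14 of 20 in Matrigel, with median log2 ratios of -0.23 and -0.41. Over all genes 5437 of 12462 and 6222 of 12836 were lower, so the GelNB-CH count is not far from the background. At least 2-fold higher were 0 and 2 WNT genes (1.01% and 2.29% of all genes), and at least 2-fold lower 3 and 3 (1.15% and 2.42%). Beside RSPO3, the ligand gene WNT2B was at 11.7 against 39.6 CPM and 28.0 against 58.5. The secreted inhibitor FRZB was at 13.4 against 44.9 CPM and 11.3 against 29.2. The inhibitor SFRP1 ran the other way, at 259 against 189 CPM and 350 against 136, as did RSPO2, at 7.1 against 4.44 and 14.5 against 1.67. The target gene AXIN2 had ratios of 0.830 and 0.667.

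BMP and NOTCH genes gave small differences. For the BMP list (16 of 21 genes in both libraries) the medians were -0.08 and -0.29. The BMP target ID1 was at 619 against 855 CPM and 600 against 990, ID4 at 203 against 313 and 253 against 472, and the BMP antagonist NOG at 15.7 against 9.26 and 22.1 against 7.13. The ligand BMP4 was at 8.75 against 14.5 CPM and 10.8 against 15.9, and BMP7 at 156 against 120 and 134 against 107. For the NOTCH list (15 of 19 genes) the medians were -0.27 and -0.41. The ligand JAG1 stood at 89.3 against 147 CPM and 101 against 207, and the target HES4 at 67.4 against 128 and 70.0 against 133. For the FGF list (15 and 19 of 24 genes) they were -0.04 and 0.45. In Matrigel 4 of them were at least 2-fold higher (2.29% of all genes were), among them FGF10, with 72.0% of its UMIs in 1 cell, and the FGF feedback gene IL17RD, at 77.6 against 33.6 CPM. IL17RD was at 49.6 against 32.6 CPM in GelNB-CH, where none of the list passed 2-fold.

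Genes of the otoconial matrix and of endolymph ion transport were near the other otic cells as groups, with medians of -0.09 and -0.03 for the first and 0 and 0.01 for the second. OTOGL, a gel-forming otogelin-like protein of the acellular membranes, was 1.45-fold and 1.96-fold higher, at 288 against 198 CPM and 286 against 146. OTOL1, the otoconial scaffold otolin-1, was lower in GelNB-CH, at 10.8 against 37.9 CPM. In Matrigel it was at 36.1 against 39.3 with 73.1% of the UMIs in 1 cell. SLC26A4, the pendrin anion exchanger, was at 27.4 against 11.2 CPM and 21.0 against 2.48.

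By their median, neighbours of the rule genes on the chromosome leaned the same way as the rule genes against the pooled other otic cells. ATP13A4, which lies beside ATP13A5 and encodes a related P5-type ATPase, was 2.84-fold higher (2.56 to 3.16) in GelNB-CH, at 43.0 against 15.1 CPM, and 3.09-fold higher (2.06 to 4.51) in Matrigel, at 17.2 against 5.57. EXOC5, near OTX2, had ratios of 1.43 and 1.60, and DICER1, near GSC, of 1.36 and 1.24. SOX9, a factor of otic epithelium on the chromosome arm of CASC17, was at 145 against 107 CPM and 123 against 81.4. Of the 12 such neighbours at 5 CPM or more, 10 were higher in each library, 2 of them by at least 2-fold. Over all genes 7025 of 12462 and 6614 of 12836 were higher, and 1.01% and 2.29% by at least 2-fold. The median log2 ratio of the neighbours was 0.44 in GelNB-CH and 0.47 in Matrigel, against 0.03 and 0.01 over all genes.

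Immediate early genes were lower in the OTX2 GSC cells than in the pooled other otic cells, though not than in every kind. Of the 14 listed, all 14 had a lower level than in the other otic cells of GelNB-CH, 4 by at least 2-fold, with a median log2 ratio of -0.59. In Matrigel 13 were lower, 5 by at least 2-fold, with a median of -0.79. Over all genes 5437 of 12462 and 6222 of 12836 were lower, and 1.15% and 2.42% by at least 2-fold. FOS was at 278 against 493 CPM and 358 against 647, and JUNB at 44.8 against 100 and 36.6 against 115. Their summed level was 1698 CPM in the OTX2 GSC cells, 1560 in the CALB1 cells, 1643 in otic cells of no kind and 4789 in the NPY cells of GelNB-CH, and 1669, 1454, 1580 and 5891 in Matrigel. Keratin genes (7 and 6 of 10) had medians of -0.63 and -1.12, against 0.03 and 0.01 over all genes. KRT19 was at 241 against 387 CPM and 254 against 480. The keratin list summed to 587 CPM in the OTX2 GSC cells of GelNB-CH and to 653 in those of Matrigel. It summed to 455 and 356 in the CALB1 cells, 687 and 753 in the GPC5 cells and 1704 and 2083 in the NPY cells. In otic cells of no kind it summed to 765 and 680. The mitochondrial share of UMIs had medians of 2.04% and 1.12% in the OTX2 GSC cells and 1.81% and 1.26% in the other otic cells.

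Taken against each other kind on its own, the OTX2 GSC cells were set apart from the NPY cells by more genes than from the other two. At least 2-fold higher in both libraries were 46 genes against the CALB1 cells (0.459% of 10031), 90 against the GPC5 cells (0.900% of 10000) and 255 against the NPY cells (2.54% of 10052). At least 2-fold lower were 95 (0.947%), 71 (0.710%) and 259 (2.58%). The genes below were ranked by the same measure as above, a ranking added after the values were seen.

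Against the CALB1 cells, LINC01482 was 5.01-fold and 3.77-fold higher, TEX15, a gene known from meiosis, 3.35-fold and 3.74-fold (41.6 against 12.4 CPM and 28.0 against 7.49), and the mucin gene MUC15 2.95-fold and 3.12-fold (136 against 46.2 and 162 against 51.8). SLC26A4 was 2.65-fold and 4.59-fold higher. Lower than in the CALB1 cells were FRZB (13.4 against 56.1 CPM and 11.3 against 40.0) and the kainate receptor gene GRIK1 (69.3 against 242 and 36.1 against 157). Against the GPC5 cells, CYP26A1 was 10.9-fold and 14.9-fold higher and ANOS1 4.80-fold and 8.59-fold. SMOC1, a paralogue of SMOC2, was at 22.1 against 4.92 CPM and 34.5 against 1.60. Against the NPY cells, CYP26A1 was 45.9-fold higher (28.4 to 79.2) in GelNB-CH and 70.8-fold higher (26.4 to 267) in Matrigel. The adhesion gene CADM2 was 9.79-fold and 11-fold higher there, at 484 against 49.4 CPM and 394 against 35.7.

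Within the OTX2 GSC cells, levels were also read by class of the OTX2 sum, with which depth rose. In GelNB-CH the 371 cells with a sum of 3 or 4 had a median of 9627 UMIs, the 379 with 5 to 9 had 12285 and the 219 with at least 10 had 17166. CASC17, which enters the sum, went from 83.8 through 215 to 562 CPM over these classes, whereas OTX2, which also enters it, went from 128 through 113 to 96.7. High sums in GelNB-CH were thus mostly high CASC17. CYP26A1 stood at 38.6, 50.0 and 57.8 CPM, ANOS1 at 77.5, 96.6 and 134, and RBFOX1 at 143, 211 and 358. PTGDS went down from 10.5 through 7.09 to 2.22 CPM. OTX2-AS1 stayed close to its level, at 125, 112 and 118 CPM. In Matrigel, with 52, 38 and 12 cells, CYP26A1 was at 29.4, 50.9 and 18.8 CPM and OTX2-AS1 at 154, 110 and 97.2. ANOS1 was at 15.3, 34.9 and 72.1 CPM there, higher with the sum as in GelNB-CH. RBFOX1, at 271, 148 and 160, and PTGDS, at 7.06, 5.81 and 9.4 from 6, 4 and 3 UMIs, did not follow their GelNB-CH order. Another otic gene, PAX2, was at 266, 336 and 443 CPM in GelNB-CH and at 226, 224 and 721 in Matrigel. The part of depth in these values was not tested.

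Between the libraries, 219 of 10487 genes (2.09%) were at least 2-fold higher in the OTX2 GSC cells of GelNB-CH than in those of Matrigel, and 187 (1.78%) at least 2-fold lower. In the other otic cells the counts were 124 of 10378 (1.19%) and 78 (0.752%). With TMM factors the OTX2 GSC counts became 260 and 143, and without each gene's top cell 334 and 99, so the share higher in GelNB-CH moved from 53.9% to 64.5% and 77.1%. Of the 219 and 187 genes, 163 and 155 also passed with called doublets removed. Matrigel levels rest on 102 cells, and single cells carry some of them.

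Of the rule genes, ATP13A5 was 7.0-fold higher (4.79 to 10.7) in the OTX2 GSC cells of GelNB-CH and CASC17 1.89-fold (1.67 to 2.15). GSC was 1.33-fold higher (1.04 to 1.72), and OTX2 had a ratio of 0.768 (0.675 to 0.877). In the other otic cells the ratios were 9.31, 2.86, 2.89 and 1.57 in that order. The rule chose the cells by these 4 genes, so their ratios in the OTX2 GSC cells only describe what was selected. OTX2 alone reached 3 UMIs in 23.9% of the selected cells in GelNB-CH and 52.9% in Matrigel. The genes of the rule thus did not choose the cells to the same extent in both libraries. The part of this in the other library ratios was not tested. CCDC195, a little-studied coding gene, was at 69.2 CPM in GelNB-CH, in 40.6% of the cells, and at 4.31 in Matrigel, in 4.90% of the cells, a ratio of 16.1 (8.12 to 37.3). Its ratio in the other otic cells was 3.90. CNTN5, a neuronal contactin, was at 513 and 67.9 CPM, a ratio of 7.56 (6.33 to 9.08), in 61.2% and 16.7% of the cells, with 2.12 in the other otic cells. Without called doublets these 2 ratios in the OTX2 GSC cells were 22.0 and 7.97. The transcription cofactor ZFPM2 had a ratio of 6.53 against 1.85 and the ephrin receptor EPHA3 of 13.7 against 2.24. Against the other otic cells of the same library, CCDC195 had a ratio of 4.33 in GelNB-CH and 1.05 in Matrigel, and CNTN5 of 3.02 and 0.847. The difference between the libraries in these ratios was not tested. The CALB1 cells held CNTN5 at 498 CPM in GelNB-CH, close to the OTX2 GSC cells, and at 304 in Matrigel, above them. They held CCDC195 at 14.6 and 6.25 CPM.

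DCC, a netrin receptor, was at 47.9 and 2.15 CPM, a ratio of 22.2 (8.63 to 81.8) from 4 UMIs in Matrigel, and at a ratio of 0.589 in the other otic cells, where the NPY cells held it at 231 and 549 CPM. The cartilage matrix genes ACAN (26.1 and 1.62 CPM, 3 UMIs in Matrigel), HAPLN1 (53.6 and 3.77), EPYC (50.0 and 3.77) and MATN1 (47.1 and 4.31) were also higher in GelNB-CH. All 4 were at higher levels in mesenchyme, at 104, 181, 262 and 117 CPM in GelNB-CH and 68.8, 115, 167 and 103 in Matrigel, and were higher in the other otic cells of GelNB-CH too, by 5.57-, 4.52-, 4.43- and 3.57-fold. With called doublets removed, the ratios in the OTX2 GSC cells were 1.81 for DCC, 2.17 for ACAN, 1.98 for HAPLN1, 2.85 for EPYC and 1.20 for MATN1. The basement membrane gene LAMA4 and the noncoding RNA SILC1 had ratios of 8.86 and 5.54, with 3.47 and 3.12 in the other otic cells, and of 1.74 and 6.07 without called doublets. The heat shock gene HSPA1A was 5.80-fold higher (4.61 to 7.39), at 234 and 40.4 CPM, with 2.62 in the other otic cells.

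Lower in GelNB-CH was PURPL, a p53-regulated noncoding RNA, at 2.09 and 29.1 CPM, 13.9-fold lower, in 2.48% and 20.6% of the OTX2 GSC cells. It was 4.44-fold lower in the other otic cells. NPR3, the natriuretic peptide clearance receptor, was 8.87-fold lower (7.1 and 63.0 CPM) against 1.86-fold in the other otic cells. The stress factor ATF5 was 5.40-fold lower (23.0 and 124 CPM) against 3.87-fold, and NDUFA4L2, a hypoxia-responsive gene, 5.16-fold (7.93 and 40.9 CPM) against 3.53-fold. FAM107A, PEX5L, LYPD6B and the FGF feedback gene SPRY1 were 5.40-, 4.67-, 3.72- and 3.41-fold lower, SPRY1 1.94-fold in cells of 8000 to 16000 UMIs. NEFM, EYS and NEUROD1, the first and last of them neuronal genes, had 57.7%, 61.2% and 67.4% of their Matrigel UMIs in 1 cell. Their ratios of GelNB-CH to Matrigel without it were 0.211, 0.393 and 0.420, and with called doublets removed they were 0.642, 0.999 and 1.44. SOX2 was at 6.95 and 22.6 CPM, a ratio of 0.307 (0.211 to 0.454), in 7.12% and 24.5% of the OTX2 GSC cells, with a ratio of 0.703 in the other otic cells.

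**Figure D5:**
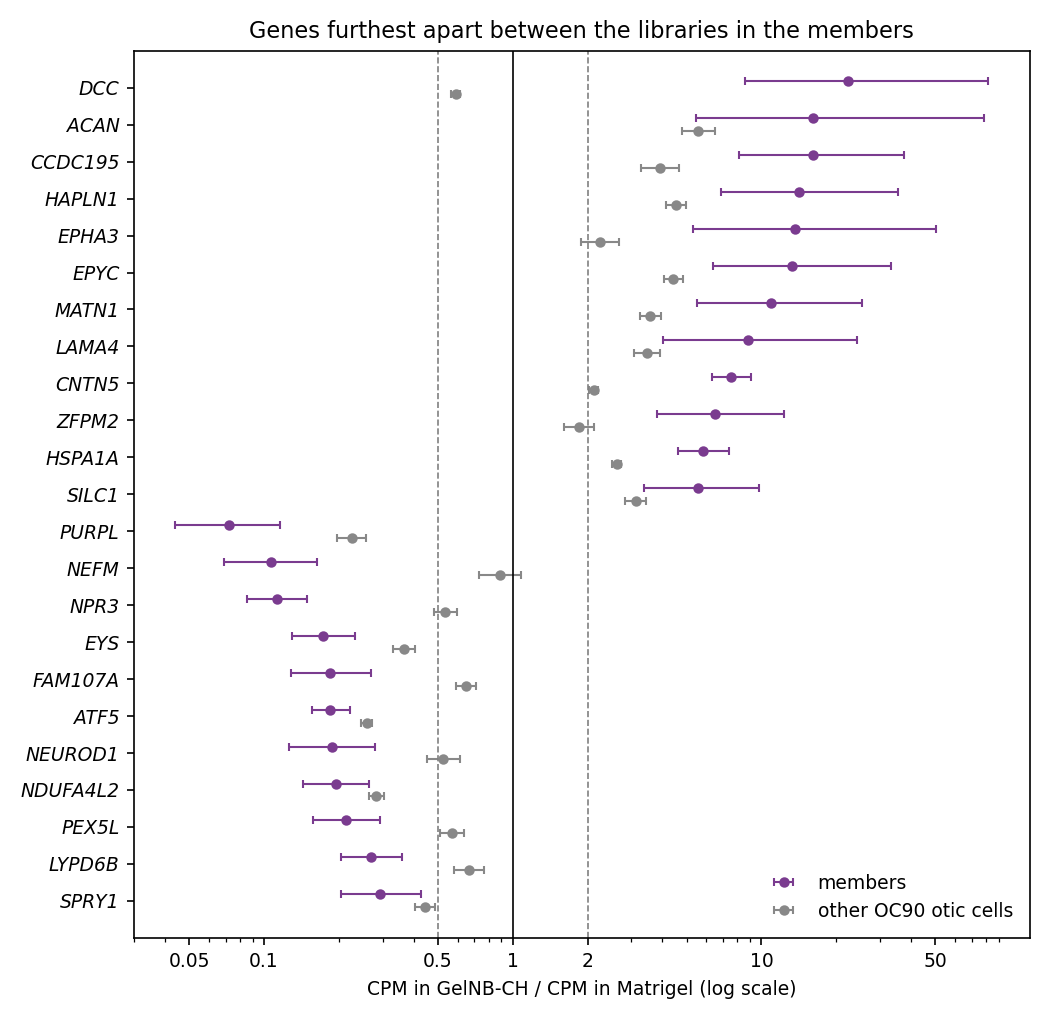
CPM in GelNB-CH divided by CPM in Matrigel (log axis) for the 23 genes named as highest and lowest in this contrast, in the OTX2 GSC cells (purple) and the other OC90 otic cells (grey); bars are exact 95% counting intervals and dashed lines 0.5 and 2. CCDC195 lies at 16.1 in the members and 3.90 in the other cells, and PURPL is 13.9-fold and 4.44-fold lower in GelNB-CH.

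Some gene lists differed between the libraries in the same direction in the OTX2 GSC cells and in the other otic cells. Hypoxia-responsive genes were lower in GelNB-CH, with a median log2 ratio of -0.85 in the OTX2 GSC cells and -0.93 in the other otic cells, against -0.01 and -0.04 over all genes. Of 19 such genes at 5 CPM or more, all 19 had a lower level in the OTX2 GSC cells of GelNB-CH and 6 were at least 2-fold lower. Over all genes 6511 of 12729 were lower in these cells, and 1.78% at least 2-fold lower. The summed level of the hypoxia and glycolysis list was 1733 and 2740 CPM. VEGFA stood at 38.7 and 92.1 CPM and BNIP3, of mitochondrial clearance, at 130 and 305. Mitochondrially encoded genes were higher in GelNB-CH, with medians of 0.57 and 0.39 and a sum of 20407 and 13497 CPM. Heat shock genes had medians of 0.36 and 0.46, with HSPA1B at 81.7 and 23.2 CPM and DNAJB1 at 90.3 and 38.2. The cartilage list had medians of 0.92 and 1.00 and the mesenchyme list of 0.74 and 0.85, which in the OTX2 GSC cells were 0.34 and 0.22 without called doublets. FGF genes had medians of -0.73 and -0.10. Other lists had opposite signs in the OTX2 GSC cells and the other otic cells, among them the neuron list (-0.22 and 0.36), the keratin list (-0.15 and 0.28), the dorsal and vestibular list (0.23 and -0.16) and the NOTCH list (0.25 and -0.07). The mesenchyme list, which covers cells outside the gate, summed to 104 CPM in the OTX2 GSC cells of GelNB-CH and 52.2 in those of Matrigel. The part of RNA from other cells and of depth in these values was not tested.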

How the data were processed

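The 2 libraries were made with the 10x 3′ v3.1 assay, per the labels' protocols. The values used are UMI counts per gene and cell that the authors deposited as filtered matrices from Cell Ranger, version 7.1.0 per the file headers and 4.0.0 per the labels; STAR and GRCh38 (hg38) are named in the submitters' processing notes. Of 36601 genes listed, 34616 matched GENCODE v29. The features hold no reporter transcript.

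Cells with at least 1000 genes and at most 15% mitochondrial UMIs were kept. Scrublet (scanpy 1.11.5, expected rate 0.8% per 1000 barcodes) called doublets, which were kept except in an alternative. UMIs were summed per library and kind of cell and scaled to CPM with Python 3.11.15, numpy 2.4.6, scipy 1.17.1 and pandas 2.3.3. Ratios have exact conditional binomial intervals and shares Clopper-Pearson intervals, which cover counting error only. Log2 ratios of lists use CPM plus 1 and genes of at least 5 CPM. TMM factors came from edgeR 4.0.16. The ratio code was tested on simulated data. Levels are compared within a gene only, since 3′ UMI counts are not comparable between genes.

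Genes named in the text were the 15 highest and 12 lowest against the other otic cells by the less extreme library. The 12 highest and lowest between libraries were named too. In each ranking the larger level was at least 20 CPM and the interval lay beyond 2-fold. Y-linked genes, XIST, and mitochondrial, ribosomal and clone-named genes were left out of these rankings, and a few genes are not reported here. From each list up to 4 members (the 2 largest and 2 smallest ratios) and its factors, ligands or receptors were named. The members and the lists were chosen with earlier results of these data known. Alternatives changed the gene sum, the gates, the minimum CPM, the scaling, the depth and the doublets.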

Additional observations from a re-analysis of the deposited data

How the results depend on the processing

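No paired analysis was possible because each group was 1 library. The Matrigel OTX2 GSC cells numbered 102, so a gene under 10 CPM there rests on fewer than 20 UMIs. Of the 54 ratios named against the other otic cells, 49 were past 2-fold under every alternative run, and the exceptions, all in Matrigel, were CEBPD, GRIA4, NRG1, PLD5 and RBFOX1. Of the 24 ratios between the libraries 15 were past 2-fold in each alternative where a ratio was formed, PEX5L among them. The exceptions were DCC, HAPLN1, LAMA4, MATN1, NEFM, EYS and NEUROD1, without called doublets, SPRY1 in cells of 8000 to 16000 UMIs and SOX2 with 10 added to each CPM (0.520). Leaving out the cell with most UMIs of a gene, and taking the share within cells of 8000 to 16000 UMIs, were chosen after seeing the data. The 219 genes higher in the OTX2 GSC cells of GelNB-CH and the 187 higher in those of Matrigel became 379 and 365 at a minimum of 5 CPM, 128 and 81 at 20 CPM, 6939 and 2891 with no minimum, 648 and 435 in cells of 8000 to 16000 UMIs, 70 and 41 with 10 added to each CPM, and 334 and 99 without the top cell. With an OTX2 sum of at least 5 the GelNB-CH count was 352. With no minimum, 411 genes were higher and 3328 lower than in the other otic cells in both libraries, against 62 and 71. The shares of otic cells, 15.6% and 4.99%, were 18.9% and 6.50% with a sum of at least 2, 9.60% and 2.44% with 5, 3.52% and 0.587% with 10, 12.1% and 4.01% where the sum had to be 2 times each other sum, and 8.19% and 1.51% after thinning. The GelNB-CH share was 14.6% with OC90 of at least 2 and 16.7% in cells of 8000 to 16000 UMIs, where the Matrigel share was 5.44%. NEUROD1 reversed between the libraries, to a ratio of 1.44 without doublets and 2.60 with a sum of at least 5, as did EYS (1.57 in cells of 8000 to 16000 UMIs). In those cells the Matrigel levels of NEFM, NEUROD1 and PEX5L were 0, so none of them was lower in GelNB-CH there, and no ratio was formed. The dorsal and vestibular median turned to -0.11 with per-cell means and -0.20 without doublets between the libraries. Against the other otic cells it turned to -0.52 (8000 to 16000 UMIs), -0.24 (sum of at least 5) and -0.45 (without top cells) in Matrigel and to 0.05 (sum of at least 5) in GelNB-CH. The cartilage median in Matrigel turned to 0.27 without doublets and 0.18 against the 3 other kinds at equal weight, the mitochondrially encoded one to 0.03 (8000 to 16000 UMIs), and the NOTCH pathway one between libraries to -0.03 without doublets. The cause of these shifts was not tested, except that lower minimums test more genes.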
